A study of Mus musculus with 14 samples.

Results

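Mouse epiblast stem cells (EpiSC) were compared with embryonic stem cells (ESC) and with lines reverted from EpiSC to an ESC-like state (rES), and 107 genes were more abundant in EpiSC than in ESC and stayed high in the reverted lines. They were chosen by a rule on group mean CPM (a gene's read count scaled to the total count of its library). A gene needed an EpiSC mean of at least 5 CPM, an EpiSC mean at least 3 times the ESC mean, and rES means of at least 50% of the EpiSC mean in each of the 3 rES groups. Of 24015 genes in the table, 733 met the first 2 conditions and are called EpiSC-high below. The 107 retained genes are 14.6% of those 733, and the other 626 are called not retained. Levels in ESC, EpiSC and rES chose these genes, so those levels are given as a description without a test.

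The study measured RNA by single-end sequencing in 7 groups of 2 libraries. ESC and EpiSC were both derived from blastocysts and have the genotype label CD1/JF1. ESC grew with feeder cells in LIF (leukemia inhibitory factor) and 15% serum replacement, and EpiSC in 20% serum replacement with 10 ng/ml bFGF. EpiSC were also moved to LIF medium with 100 µM MM401 and sampled at 3 days (MM401 day 3) or at 6 days and passage 2 (MM401 P2), with the same genotype label. MM401 is an inhibitor of the histone methyltransferase Mll1. The rES lines have the genotype label CD1-deltaTSIX/JF1, were kept in LIF with 25 µM MM401 after passage 3, and were sampled at passage 6, at passage 30 and at passage 30 without MM401. No group separates the change to LIF medium from MM401 itself. No label says whether rES came from the EpiSC culture sampled here, so "retained" is a statement on level and not on lineage. Replicate 2 of MM401 P2 carries P2b in its title, and the labels do not say whether the 2 libraries of any group came from separate cultures, so the spread between them may be technical.

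EpiSC stand for the primed state of pluripotency, which depends on FGF and activin signalling, and ESC for the naive state, which is kept by LIF. Cells that pass from primed to naive are known to turn off primed genes such as the DNA methyltransferase Dnmt3b and to turn on naive factors such as Tfcp2l1. Among the retained genes, the list with the most retained genes is cholesterol synthesis, in which mevalonate is turned into isoprenoid units (Idi1, Fdps), cyclised, and modified on the sterol ring (Hsd17b7, Sc5d).

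The promoters of 3 sterol genes, of Ngfr, which had the deepest fall under treatment, and of Phka1, which fell under treatment and stood above EpiSC in rES, are shown first because the results below return to these genes. Each sequence is RefSeq's 300 bases from 250 before to 50 after the gene's start, in build GRCm38.p6 on the gene's strand, in lower case. Capitals mark CCAAT boxes (CCAAT, or ATTGG for the other strand) and GC boxes (GGGCGG, or CCGCCC for the other strand).
Idi1 promoter, strand +, chr13:8885356-8885655: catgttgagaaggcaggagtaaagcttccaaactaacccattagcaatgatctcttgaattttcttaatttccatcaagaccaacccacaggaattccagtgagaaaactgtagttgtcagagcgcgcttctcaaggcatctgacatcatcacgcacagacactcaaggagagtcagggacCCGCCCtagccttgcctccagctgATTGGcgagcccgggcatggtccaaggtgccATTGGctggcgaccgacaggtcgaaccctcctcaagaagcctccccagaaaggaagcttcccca
Sc5d promoter, strand -, chr9:42264251-42264550: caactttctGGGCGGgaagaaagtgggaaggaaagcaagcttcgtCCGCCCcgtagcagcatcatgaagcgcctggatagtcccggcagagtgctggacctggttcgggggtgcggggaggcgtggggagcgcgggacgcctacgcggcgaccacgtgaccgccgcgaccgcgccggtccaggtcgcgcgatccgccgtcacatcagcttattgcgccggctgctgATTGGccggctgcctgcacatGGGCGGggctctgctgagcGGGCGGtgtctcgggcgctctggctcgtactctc
Hsd17b7 promoter, strand -, chr1:169969156-169969455: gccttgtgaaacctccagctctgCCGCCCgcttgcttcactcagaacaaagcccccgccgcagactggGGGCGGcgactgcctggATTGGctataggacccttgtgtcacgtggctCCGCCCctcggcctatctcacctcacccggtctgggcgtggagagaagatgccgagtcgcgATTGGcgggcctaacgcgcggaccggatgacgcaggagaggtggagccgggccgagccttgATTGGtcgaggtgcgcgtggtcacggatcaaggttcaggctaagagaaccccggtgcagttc
Ngfr promoter, strand -, chr11:95587649-95587948: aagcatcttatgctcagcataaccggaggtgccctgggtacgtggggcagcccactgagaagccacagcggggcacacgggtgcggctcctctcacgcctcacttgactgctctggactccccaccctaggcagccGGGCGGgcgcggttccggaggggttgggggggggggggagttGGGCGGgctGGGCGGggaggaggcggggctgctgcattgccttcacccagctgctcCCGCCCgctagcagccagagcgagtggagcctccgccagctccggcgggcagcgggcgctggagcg
Phka1 promoter, strand -, chrX:102644197-102644496: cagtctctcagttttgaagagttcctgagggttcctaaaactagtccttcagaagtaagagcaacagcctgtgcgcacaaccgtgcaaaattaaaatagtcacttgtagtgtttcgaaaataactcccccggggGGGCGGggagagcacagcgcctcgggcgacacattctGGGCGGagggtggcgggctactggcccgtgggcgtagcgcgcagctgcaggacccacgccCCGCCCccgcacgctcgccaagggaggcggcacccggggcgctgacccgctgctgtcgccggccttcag
The 3 sterol promoters held 2 (Idi1), 1 (Sc5d) and 3 (Hsd17b7) CCAAT boxes, and those of Ngfr and Phka1 held 0. GC boxes numbered 1 in Idi1, 4 in Sc5d, 3 in Hsd17b7, 4 in Ngfr and 3 in Phka1. Of the 107 retained genes, 84 had a promoter in the table. A CCAAT box lay in 44.0% of those 84, in 38.6% of the 461 promoters of not retained genes and in 39.2% of all 17799 promoters. A GC box lay in 60.7%, 60.7% and 46.9% of the same sets. The core of the sterol regulatory element (CACNCCAC on either strand, which overlaps neither box) lay in 9.52% of the retained promoters (8 promoters), against 6.07% and 6.05%, and in none of the 5 promoters shown. These are letter matches in a fixed window and not binding sites, and the core motif was added after the values were seen.

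Libraries held 20831588 to 23677089 counts, except MM401 day 3 (113221270 and 116086115) and MM401 P2 (74952496 and 80383376). In those deeper libraries 1.391% to 1.9% of counts fell on Rn45s, a precursor of ribosomal RNA, against 0.435% and 0.35% in EpiSC and at most 2.005% elsewhere (rES passage 30 replicate 2). Any technical difference behind depth and Rn45s cannot be told apart from treatment. Summed CPM of 6 naive markers was 542 to 555 in EpiSC, 2990 to 3000 in ESC and 4134 to 4592 in rES. Summed CPM of 6 primed markers was 1871 to 1874 in EpiSC and 691 to 696 in ESC. The rES libraries lay below ESC in this sum, at 103 to 152. Dnmt3b, one of the primed genes, measured 614 and 626 CPM in the EpiSC libraries. ESC libraries held 330 and 329 CPM of Dnmt3b, and no rES library exceeded 38.5 CPM. The rES lines were therefore lower than ESC in Dnmt3b too. Summed CPM of 20 fibroblast markers, which feeder cells would carry, was 10767 to 10844 in EpiSC, 10282 to 10321 at MM401 day 3, 26671 to 26941 at MM401 P2, 15394 to 15427 in ESC and 4268 to 9035 in rES, and no marker was at 0 in any library. Summed CPM of 13 markers of primitive endoderm, the other lineage of the inner cell mass, was 5069 to 5085 in ESC, 1037 to 1041 in EpiSC and 937 to 1300 in rES. In whole cultures, fewer cells of a type and less RNA per cell cannot be told apart.

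Retained genes covered a wide range of EpiSC levels, and most were not far above the fold limit. Their EpiSC means started at 5.03 CPM and had a median of 23.66 CPM. The EpiSC to ESC ratio had a median of 3.534 and a range of 3.005 to 12.44, against a median of 4.738 in the not retained genes. Ngfr (12.4), Tex13 (11.9), Prmt8 (10.996), C1ql1 (10.8) and 1700013H16Rik (10.6) had the highest ratios. At the level limit, Mlxipl (5.03 CPM) and Ecel1 (5.05 CPM) lay just inside, and Tmem35 (4.96 CPM) and Bdh2 (4.89 CPM) just outside. At the fold limit, the EpiSC to ESC ratio was 3.005 for Fdps and 3.007 for Tmem194b inside, and 2.997 for Samd10 and 2.990 for Adam22 outside. At the retention limit, the lowest rES to EpiSC ratio was 0.50006 for Zfp39 and 0.50093 for Zfp280c inside, and 0.497 for both Slc44a3 and Mipol1 outside.

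Retention at this level was common among expressed genes and uncommon among EpiSC-high genes. Of all genes with at least 5 CPM in EpiSC, 80.07% had rES means of at least 50% of EpiSC in all 3 groups. Most retained genes still stood below EpiSC in rES: the median rES to EpiSC ratio was 0.7096 at passage 6, 0.7108 at passage 30 and 0.7137 without MM401. Among the 10 genes above EpiSC in all 3 rES groups were Serpinb2, Hap1, Clgn, Mfng, Gm364, Phka1, Sobp, Nap1l3 and 1700013H16Rik. Between passage 6 and passage 30 the ratio of means lay between 0.7355 and 1.317, so all 107 genes moved by less than 1.5-fold. Between passage 30 with and without MM401 it lay between 0.6439 and 1.389, and 106 genes moved by less than 1.5-fold. The exception was Mlxipl, a glucose-responsive transcription factor of lipid synthesis, at 5.58 and 6.11 CPM with MM401 and 4.31 and 3.22 CPM without it. The rule required 50% of EpiSC in all 3 rES groups, which limits differences among them. The share of all genes within 1.5-fold was not counted, so these counts show no trait particular to the retained genes.

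**Figure D1:**
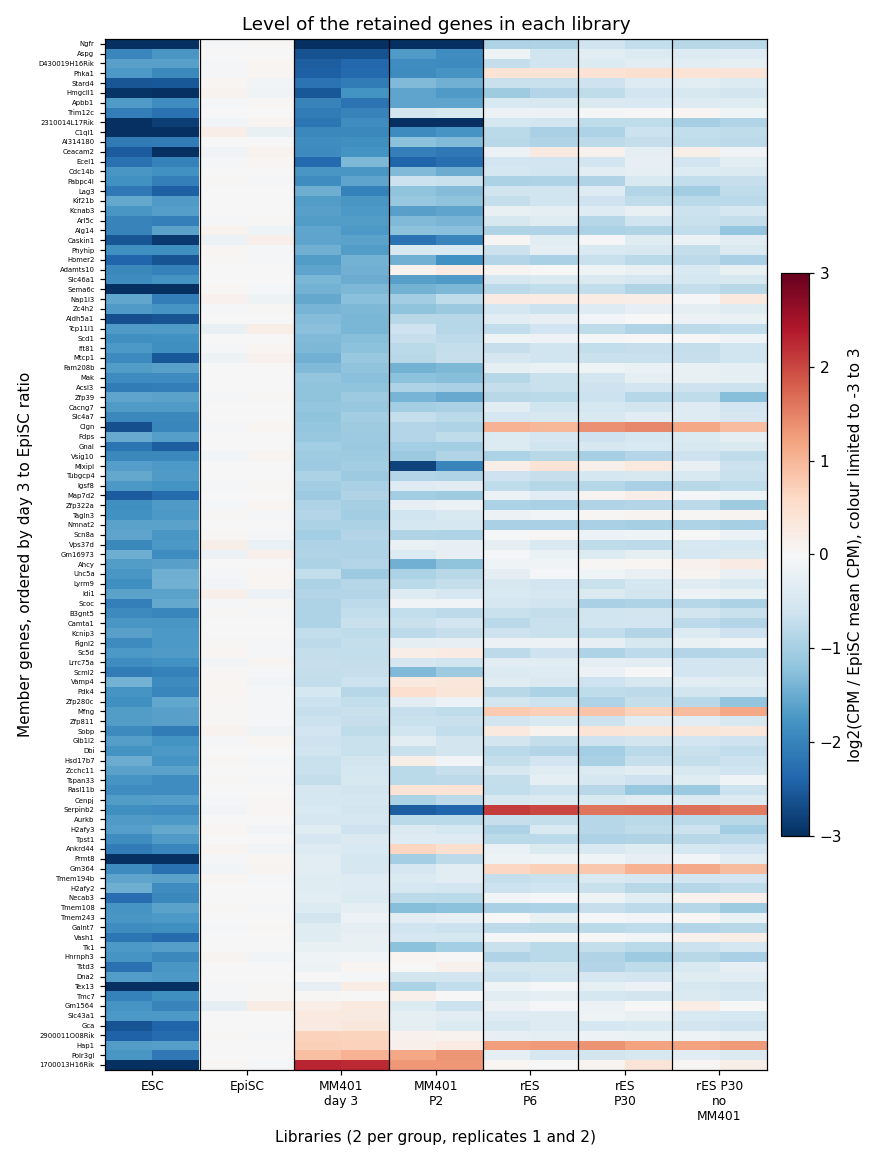
Level of 105 of the 107 retained genes in each of 14 libraries (columns, 2 per group) as log2 of CPM over the EpiSC mean, with colour limited to 3 units on either side of 0 and genes ordered by their MM401 day 3 to EpiSC ratio. The ESC, EpiSC and rES columns follow from the selection rule, and the MM401 day 3 and MM401 P2 columns were not used by it and hold both the deepest falls (Ngfr, at the top) and the highest rises (1700013H16Rik, at the bottom).

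The MM401 day 3 and MM401 P2 libraries were not part of the rule. The EpiSC libraries they were set against were part of it, so EpiSC values entered both the choice of genes and the test. Only the treated libraries are new. Choosing genes for a high EpiSC mean by itself makes a call of lower than EpiSC more likely. The split into retained and not retained genes used the EpiSC means too. The size of this effect was not tested, and the shares of all genes given below do not correct for it. Both comparisons use the same 2 EpiSC libraries and are therefore given side by side and not as separate evidence. Genes were tested with edgeR's quasi-likelihood test over 16247 genes and called at a Benjamini-Hochberg adjusted p under 0.05, and higher, lower, rose and fell refer to called genes. All 107 retained genes passed the filter on low counts. Values after ± are standard errors on the log2 scale.

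At MM401 day 3, most retained genes were lower than in EpiSC, and a fall of at least 2-fold was called for a smaller share of them than of the not retained genes. Of the 107, 89 were lower, where 37.9% of all genes tested were, and 9 were higher, where 38.7% of all genes were. The other 9 were not called, while 76.6% of all genes were called in either direction. A fall of at least 2-fold was called for 37 (34.58%), where 15.7% of all genes and 85.94% of the not retained genes (538 of 626) had one. The median log2 fold change was -0.76 in the retained genes, -2.01 in the not retained genes and 0.00 over all genes. By CPM alone, 48 of the 107 (44.86%) and 564 of the 626 (90.10%) stood below 50% of EpiSC. Scaled to total counts instead of TMM factors, the median over all genes at day 3 was -0.17, 38.61% instead of 50.57% of all called genes were higher, and 6 retained genes were higher and 95 lower.

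At MM401 P2 the picture was close to that at day 3. Of the 107 retained genes, 85 were lower than in EpiSC (33.8% of all genes were lower) and 14 were higher (42.1% of all genes were higher). The other 8 were not called, while 75.9% of all genes were called in either direction. A fall of at least 2-fold was called for 33 (30.84%), where 11.0% of all genes and 68.05% of the not retained genes (426 of 626) had one. The median log2 fold change was -0.62 in the retained genes, -1.56 in the not retained genes and 0.08 over all genes. Below 50% of EpiSC by CPM stood 37 (34.58%) of the retained genes and 454 (72.52%) of the not retained genes. Fibroblast markers moved with this comparison, since all 20 were higher at P2 than in EpiSC (median log2 fold change 1.48). None of the 107 is on that list. Other marker sums moved too: primitive endoderm markers summed to 2349 to 2430 CPM at P2 and 1400 to 1430 CPM at day 3, and naive markers to 1917 to 2008 CPM at P2 and 3002 to 3022 CPM at day 3. The part of fibroblasts, primitive endoderm or naive cells in these values was not tested. At day 3, 10 of the 20 were higher and 7 lower than in EpiSC. Scaled to total counts, the median over all genes at P2 was -0.07, 45.26% instead of 55.47% of all called genes were higher, and 10 retained genes were higher and 91 lower.

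**Figure D2:**
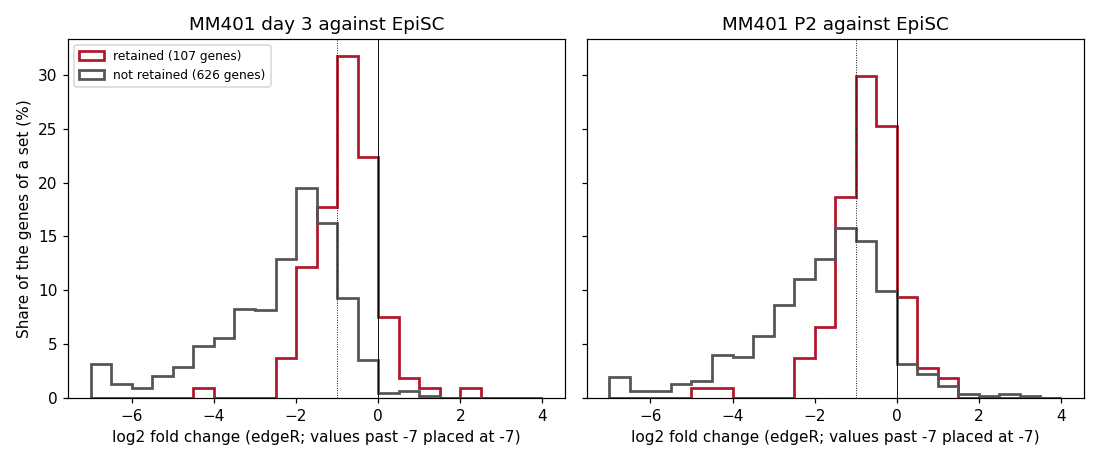
Distribution of log2 fold changes against EpiSC at MM401 day 3 (left) and MM401 P2 (right) for the 107 retained genes (red) and the 626 not retained genes (grey), as a share of each set in percent, with the lowest values gathered in the leftmost bin. The dotted line marks a 2-fold fall, and the retained genes centre on -0.76 and -0.62 where the not retained genes centre on -2.01 and -1.56.

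Between day 3 and P2 the retained genes moved in both directions, in a comparison that holds no library used by the rule. At P2, 43 retained genes were higher than at day 3 (37.5% of all genes were) and 30 were lower (33.3% of all genes were), while 34 were not called and 70.8% of all genes were called in either direction. A fall of at least 2-fold was called for 3 retained genes (2.32% of all genes) and a rise of at least 2-fold for 5 (13.5% of all genes). The shares called higher (40.19%) and lower (28.04%) at any fold are near those of all genes. The median log2 fold change was 0.06 against 0.04 over all genes. Rises of at least 2-fold, at 5 of 107, were a smaller share than over all genes. Of the 626 not retained genes, 390 were higher and 61 lower, with a median of 0.55. All 20 fibroblast markers were higher at P2 than at day 3 too (median log2 fold change 1.498).

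**Figure D3:**
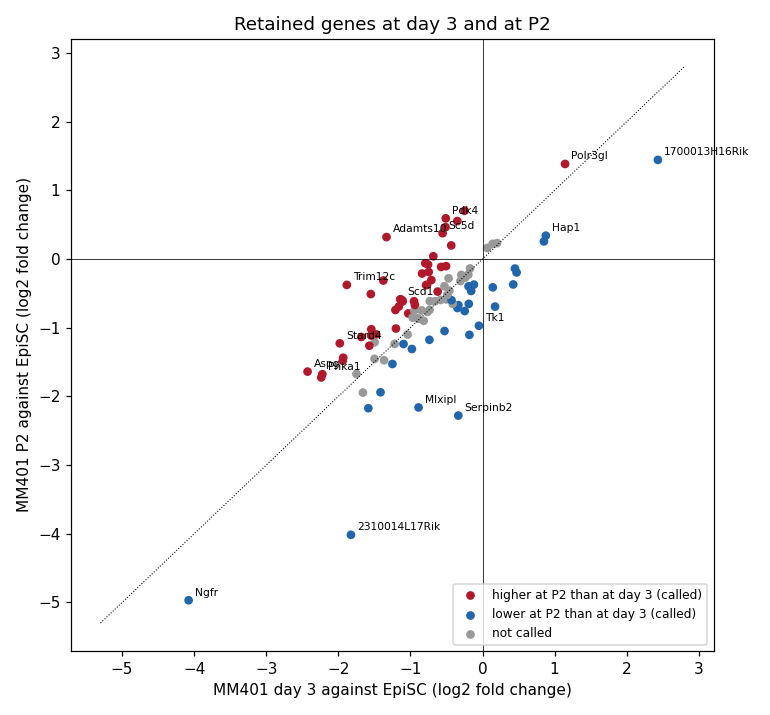
Log2 fold change against EpiSC of 105 retained genes at MM401 day 3 (x axis) and MM401 P2 (y axis), coloured by its call between P2 and day 3, with the dotted line marking equal values. Both axes share the EpiSC libraries, and the points farthest from the dotted line are genes with large P2 to day 3 differences such as 2310014L17Rik (-2.19), Serpinb2 (-1.94) and Adamts10 (1.65).

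The largest group with a known role comprised 22 genes of neurons and other excitable cells, grouped by role after their values were seen. At day 3, 20 of the 22 were lower than in EpiSC, 12 of them at least 2-fold, and 1 was higher, with a median log2 fold change of -1.19. At P2, 21 were lower, 10 of them at least 2-fold, and 1 was higher, with a median of -0.86. Over all genes tested, 37.9% were lower and 15.7% at least 2-fold lower at day 3, and 33.8% and 11.0% at P2, while 83.18% and 79.44% of all retained genes were lower. Summed CPM of the neural markers was also lower under treatment, at 143 at day 3 and 116 to 121 at P2, where EpiSC had 574 to 577. In rES the marker sum stood at 83.2 to 117, below the 154 to 155 of ESC. The 22 genes had a median of 0.721 of EpiSC in rES without MM401. The rule required the rES means of each of the 22 genes to stand above ESC, and set no such limit on the markers. The selection therefore fixed the 22 genes' side of this contrast, which shows no trait particular to them. The part of the neural markers in these values was not tested. None of the 22 except Scn8a, a sodium channel subunit, is on the lists of neural and axon genes or ion channels. The neural and axon list held 11 EpiSC-high genes and 0 retained genes.

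Ngfr, the low-affinity neurotrophin receptor, had the deepest fall of all retained genes. Its level was 172 and 180 CPM in EpiSC, 14.2 and 14.1 in ESC, 9.20 and 9.29 at MM401 day 3, and 5.16 and 5.001 at MM401 P2. In rES it was 92.2 and 93.7 CPM at passage 6, 116 and 105 at passage 30, and 99.0 and 101 without MM401. Both treated groups lay below ESC, and all 6 rES libraries lay between ESC and EpiSC, with no overlap between groups. The rule required rES means above ESC, so that part of the order was fixed by the selection. The log2 fold change against EpiSC was -4.08 ± 0.05 at day 3 (16.9-fold lower, edgeR adjusted p = 1.67e-40) and -4.97 ± 0.06 at P2 (31.3-fold lower, edgeR adjusted p = 1.7e-41). Between the treated groups Ngfr fell further, by 0.89 ± 0.07 on the log2 scale.

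Hap1, a partner of huntingtin in vesicle transport, was the member of this group that rose. Its level was 40.3 and 41.1 CPM in ESC, 130 and 129 in EpiSC, 212 and 210 at day 3, 144 and 153 at P2, and 299 to 328 in the 6 rES libraries. Every treated library lay above EpiSC and below rES. The log2 fold change against EpiSC was 0.88 ± 0.04 at day 3 and 0.34 ± 0.04 at P2, with a fall of -0.54 ± 0.04 between them.

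The other excitable-cell genes ranged from strong to weak falls, and Apbb1 and Kif21b are named after their values were seen. Apbb1, an adaptor of the amyloid precursor protein, fell by 1.93 ± 0.07 at day 3 and 1.44 ± 0.07 at P2, and Kif21b, a neuronal kinesin, by 1.54 ± 0.06 and 1.02 ± 0.06. Sema6c, a transmembrane semaphorin, fell by 1.22 ± 0.06 and 1.24 ± 0.06, from 67.8 and 63.8 CPM in EpiSC to 24.5 to 26.0 CPM in the 4 treated libraries, and stood at 35.2 to 40.4 CPM in rES. Igsf8, an immunoglobulin-family membrane protein, had 120 and 127 CPM in EpiSC and 62.9 to 72.9 CPM in rES. Nmnat2, an enzyme of NAD synthesis that protects axons, fell by 0.77 ± 0.04 and 0.38 ± 0.04. It had 204 CPM in both EpiSC libraries and 102 to 108 CPM in rES, which is close to the retention limit. Scn8a had 22.6 and 21.2 CPM in EpiSC, 10.9 to 12.026 CPM in the treated libraries and 19.4 to 22.6 CPM in rES. Caskin1, a synaptic scaffold, had 1.42 ± 0.14 lower log2 levels at day 3 and 1.94 ± 0.15 lower at P2.

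The 11 sterol and lipid genes, also grouped after their values were seen, were all lower than in EpiSC at day 3, 4 of them at least 2-fold. At P2, 9 were lower, 4 at least 2-fold, and 2 were higher. Between P2 and day 3, 8 were higher and 2 lower, with a median log2 fold change of 0.40. Of all genes tested, 37.9% were lower at day 3 and 33.8% at P2, with 15.7% and 11.0% at least 2-fold lower, and 37.5% were higher at P2 than at day 3. Of all retained genes, 83.18% and 79.44% were lower, and 34.58% and 30.84% at least 2-fold lower. Between P2 and day 3, 40.19% of the retained genes were higher. All 11 stood between 0.5459 and 0.9598 of EpiSC in rES without MM401.

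Of 23 cholesterol synthesis genes in the table, 5 were retained, from a list written from general knowledge. They include Idi1, Fdps, Hsd17b7 and Sc5d, and the list held 6 EpiSC-high genes. Dhcr7 was EpiSC-high and not retained because its rES to EpiSC ratios were 0.47, 0.46 and 0.48, and Msmo1 missed the EpiSC to ESC limit at 2.95. On the wider list, 21 of 23 genes had a higher mean in EpiSC than in ESC. The median EpiSC to ESC ratio was 1.954, against 1.153 for all genes of at least 5 CPM in EpiSC. The share of all genes with a higher EpiSC mean was not counted. Of the 23, 21 had rES means at 50% of EpiSC or more, where 80.07% of all genes of at least 5 CPM in EpiSC did. Hmgcs1 was listed at 0 throughout and could meet neither condition. Of the 22 genes tested, 15 were lower and 4 higher at day 3 than in EpiSC (median log2 fold change -0.30), 8 were lower and 12 higher at P2 (median 0.17), and 17 were higher and 4 lower at P2 than at day 3 (median 0.36). The corresponding medians over all genes were 0.00, 0.08 and 0.04, and the shares of all genes were 37.9% lower and 38.7% higher at day 3, 33.8% and 42.1% at P2, and 33.3% and 37.5% between P2 and day 3.

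Sc5d and Hsd17b7, which act on the sterol ring, fell at day 3 and stood at or above EpiSC at P2. Sc5d was at 58.9 and 54.8 CPM in EpiSC, 17.1 and 17.5 in ESC, 34.4 and 34.2 at day 3, 65.5 and 67.8 at P2, and 29.987 to 37.1 in rES. Its log2 fold change against EpiSC was -0.55 ± 0.06 at day 3 and 0.38 ± 0.06 at P2, and the rise from day 3 to P2 was 0.93 ± 0.05 (edgeR adjusted p = 1.33e-18). Hsd17b7 was at 52.7 and 49.5 CPM in EpiSC, 32.1 and 35.0 at day 3, 57.3 and 48.6 at P2, and 26.2 to 34.5 in rES. Its P2 libraries overlapped those of EpiSC, and its rise over EpiSC (0.20 ± 0.09, edgeR adjusted p = 0.0465) was lost in 8 other settings, among them those without EpiSC replicate 1, without EpiSC replicate 2 and without MM401 P2 replicate 1. Its rise from day 3 to P2 was 0.63 ± 0.08. The fold changes of Idi1 and Fdps against EpiSC were -0.71 ± 0.14 and -0.94 ± 0.06 at day 3. At P2 Fdps was at -0.67 ± 0.06 and Idi1 at -0.31 ± 0.14, a call that was lost without EpiSC replicate 1, without MM401 P2 replicate 2, with DESeq2 and with no filter on low counts.

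**Figure D4:**
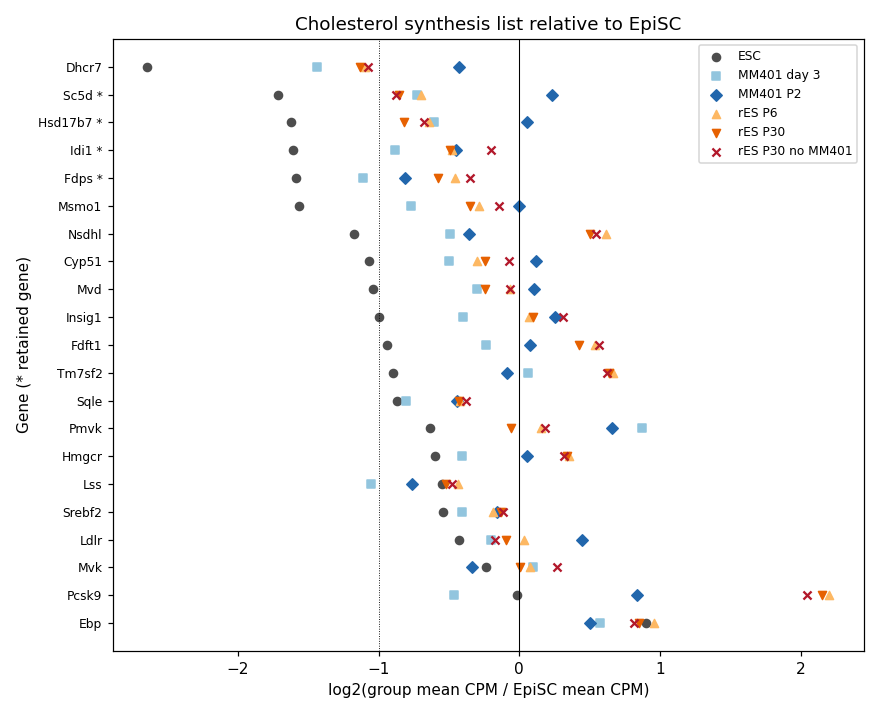
Log2 ratio of group mean CPM to the EpiSC mean for 21 cholesterol synthesis genes with counts, ordered by the ESC ratio, with retained genes marked by an asterisk and the dotted line at 50% of EpiSC. As the rule required, the 4 retained genes shown stand right of the dotted line in the rES groups. Dhcr7 stands left of it, at 0.46 to 0.48 of EpiSC.

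Among the other lipid genes, Scd1, the desaturase that makes oleic acid, was at 281 and 280 CPM in EpiSC and 78.8 and 79.3 CPM in ESC. It was at 113 and 116 CPM at day 3, 172 and 164 CPM at P2, and 252 to 281 CPM in rES, where the highest library reached the EpiSC level. It fell by 1.12 ± 0.04 at day 3 and 0.59 ± 0.04 at P2, and rose by 0.53 ± 0.04 between them. Stard4, a carrier of cholesterol, fell by 1.98 ± 0.07 and 1.23 ± 0.07 and rose by 0.75 ± 0.07 between them. Acsl3, which activates long-chain fatty acids, fell by 1.03 ± 0.04 and 0.79 ± 0.04, and Dbi, a binding protein for acyl-CoA, by 0.46 ± 0.05 at both times. Mlxipl was the lipid gene with the deepest fall at P2, at 4.95 and 5.10 CPM in EpiSC, 2.36 and 2.46 at day 3, and 0.734 and 1.28 at P2.

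Genes of transport and metabolism numbered 7, of which 6 were lower and 1 higher at day 3, and 5 lower and 1 higher at P2, where 37.9% and 33.8% of all genes tested and 83.18% and 79.44% of the retained genes were lower. Phka1, a regulatory subunit of phosphorylase kinase that controls glycogen breakdown, was above EpiSC in rES. Its level was 59.4 and 64.4 CPM in EpiSC, 18.7 and 16.2 in ESC, 11.3 and 12.2 at day 3, 16.8 and 18.1 at P2, and 80.4 to 86.8 in the 6 rES libraries. The groups ESC and P2 overlapped, and rES lay above all others. It fell by 2.22 ± 0.06 at day 3 and 1.68 ± 0.06 at P2, and rose by 0.54 ± 0.06 between them. Aspg, an asparaginase, fell by 2.43 ± 0.13 at day 3 and 1.64 ± 0.13 at P2, from 14.9 and 15.1 CPM in EpiSC. Pdk4, a kinase that restrains pyruvate oxidation, was 0.51 ± 0.09 lower in log2 terms at day 3 and 0.59 ± 0.09 higher at P2, at 27.2 and 25.2 CPM in EpiSC, 18.1 and 14.5 at day 3, and 37.4 and 33.9 at P2. Slc4a7, a sodium bicarbonate cotransporter, fell by 0.95 ± 0.05 and 0.61 ± 0.05.

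The 6 genes of cell division and DNA replication were higher in EpiSC than in ESC by 3.05 to 3.43 times. At day 3, 4 were lower and 1 higher than in EpiSC, and at P2 all 6 were lower, 1 of them at least 2-fold, where 37.9% of all genes were lower at day 3 and 33.8% at P2. Of all retained genes, 83.18% and 79.44% were lower. At least 2-fold lower at P2 were 11.0% of all genes tested and 30.84% of the retained genes. Aurkb, a mitotic kinase, was at 220 and 221 CPM in EpiSC, 155 and 155 at day 3, 125 and 125 at P2, and 122 to 136 in rES. It fell by 0.34 ± 0.04 at day 3 and 0.67 ± 0.04 at P2. Tk1, the thymidine kinase of S phase, was at 61.6 and 59.7 CPM in EpiSC, 51.9 and 51.8 at day 3, and 25.7 and 30.1 at P2. It fell by 0.92 ± 0.06 from day 3 to P2. Dna2, a nuclease of replication, was at 85.3 and 86.1 CPM in EpiSC, 85.7 and 82.0 at day 3, and 58.6 and 57.7 at P2. It was the gene called higher at day 3 (log2 fold change 0.14), although its libraries overlapped those of EpiSC, and the value was -0.03 and not called when scaled to total counts. Of 25 cell cycle list genes, 2 were EpiSC-high and Aurkb was the only one retained.

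Enzymes of glycosylation and sulfation numbered 5, and all were lower than in EpiSC at both times, 1 of them at least 2-fold. Of all genes tested, 37.9% and 33.8% were lower, and of all retained genes 83.18% and 79.44%. At least 2-fold lower were 15.7% and 11.0% of all genes tested, and 34.58% and 30.84% of the retained genes. Mfng, a glycosyltransferase that modifies Notch receptors, was the retained gene of the Notch list, which held 4 EpiSC-high genes. It was at 13.5 and 13.0 CPM in EpiSC, 8.25 and 8.37 at day 3, 8.19 and 7.78 at P2, and 21.5 to 29.7 in rES. It fell by 0.50 ± 0.10 and 0.59 ± 0.10.

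Genes of chromatin and RNA numbered 13, with 10 lower and 1 higher at day 3 and 9 lower and 2 higher at P2. At least 2-fold lower were 2 at day 3 and 3 at P2, where 15.7% and 11.0% of all genes were, and 37.9% and 33.8% of all genes were lower. Of all retained genes, 83.18% and 79.44% were lower, and 34.58% and 30.84% at least 2-fold lower. Polr3gl, a subunit of RNA polymerase III, rose by 1.15 ± 0.08 at day 3 and 1.38 ± 0.08 at P2. Its level was 17.9 and 17.4 CPM in EpiSC, 5.28 and 3.99 in ESC, 32.9 and 36.3 at day 3, 39.2 and 44.0 at P2, and 12.1 to 14.6 in rES. The treated libraries lay above all other groups. Zcchc11, a terminal uridylyltransferase that acts on microRNA precursors, fell by 0.43 ± 0.05 and 0.60 ± 0.05. Zfp39 and Zfp280c are zinc finger genes, H2afy2 and H2afy3 are histone variant genes and Trim12c and Ceacam2 belong to families of near copies, so reads of these may have been split between relatives, and their values are uncertain.

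The 43 other genes held the largest rise. 1700013H16Rik, an X-linked gene given without a role, was at 21.6 and 20.4 CPM in EpiSC, 2.18 and 1.81 in ESC, 102 and 99.5 at day 3, 51.8 and 51.4 at P2, and 21.0 to 27.7 in rES. The treated groups lay above all others, and rES overlapped EpiSC. The rise was 2.43 ± 0.07 at day 3 (edgeR adjusted p = 6.57e-29) and 1.44 ± 0.07 at P2, with a fall of -0.99 ± 0.06 between them. Adamts10, a secreted metalloprotease of the matrix, was at 38.9 and 37.8 CPM in EpiSC, 10.1 and 9.36 in ESC, 12.8 and 14.2 at day 3, 40.9 and 45.5 at P2, and 27.9 to 40.5 in rES. It was 1.33 ± 0.07 lower in log2 terms at day 3 and 0.32 ± 0.07 higher at P2, and the rise from day 3 to P2 was 1.65 ± 0.07, beside the rise in fibroblast markers at P2. Serpinb2, a serine protease inhibitor, was at 10.7 and 11.8 CPM in EpiSC, 8.16 and 7.60 at day 3, 2.01 and 2.15 at P2, and 32.4 to 47.9 in rES. It fell by 0.34 ± 0.09 at day 3, a call lost without EpiSC replicate 2, and fell by 2.28 ± 0.11 at P2.

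**Figure D5:**
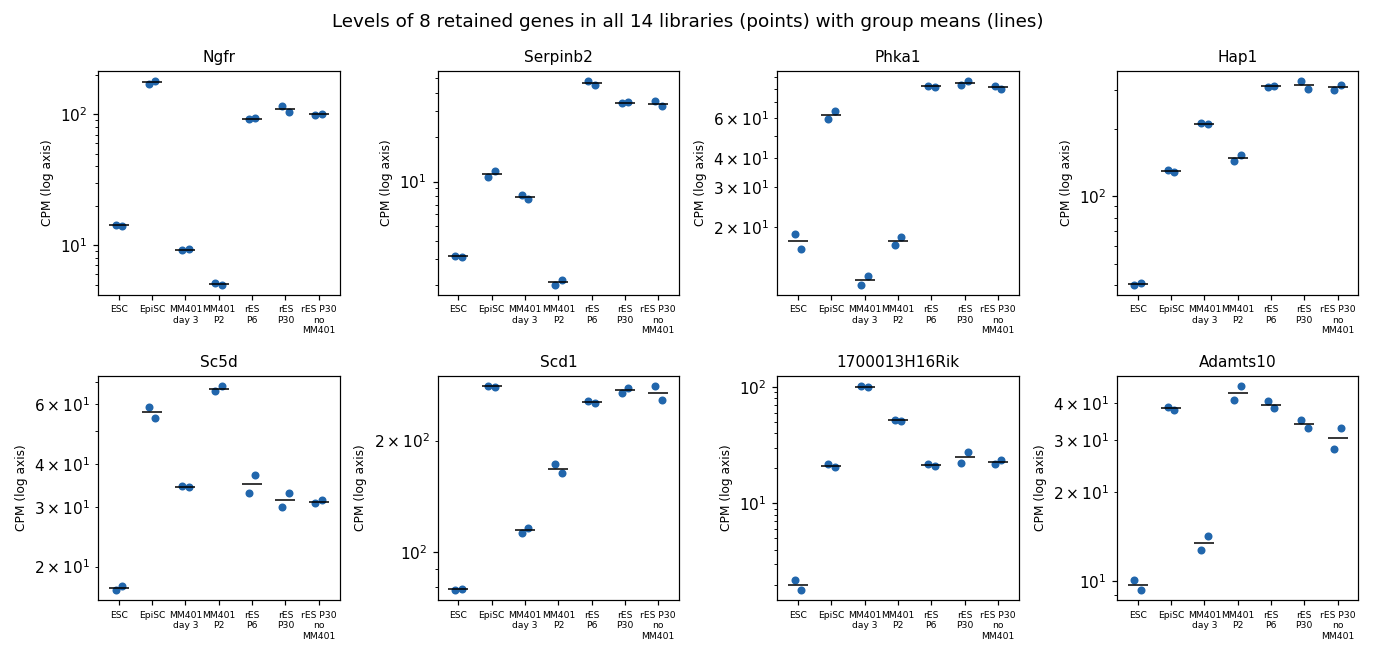
CPM on a log axis of 8 retained genes in all 14 libraries (points) with group means (lines). Ngfr was below ESC in both treated groups, whereas Hap1 and 1700013H16Rik rose above EpiSC under treatment. The rule itself places the rES means of all 8 genes above ESC.

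Against the ESC level, 7 retained genes stood below the ESC mean at day 3, and 7 at P2, where 288 and 176 of the 626 not retained genes did. Those at day 3 include Ngfr, Kif21b, Phka1, Apbb1, D430019H16Rik and Aspg. Those at P2 include Ngfr, D430019H16Rik, 2310014L17Rik, Serpinb2, Ecel1 and Mlxipl. All of these stood at 0.5 of EpiSC or more in every rES group, as the rule required, although the rES groups carry another genotype label and no path between the samples is given. The share of all genes below the ESC mean was not counted, so the counts at day 3 and P2 show no trait particular to the retained genes.

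Lists of the primed state and of signalling to it contributed no retained gene. The primed pluripotency list held 7 EpiSC-high genes and 0 retained, Wnt held 5 and 0, nodal and activin 2 and 0, AP-1 immediate early genes 5 and 0, and imprinted genes 4 and 0. The feeder fibroblast list held 3 and 0. Beside the 14.6% retained among all EpiSC-high genes, these lists are too small to be set apart.

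Per kilobase of the longest transcript, Dbi had the highest EpiSC level, at 182 CPM per kb. Among the other named genes, Aurkb had 113, Scd1 58.0, Ngfr 51.1 and Nmnat2 44.0 CPM per kb. No error is given for these values because one length was used for each gene.

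By position, 10 of the 106 retained genes matched to RefSeq lay on chromosome X (9.434%), against 6.1% of the not retained genes and 3.521% of all genes with at least 5 CPM in EpiSC. The 10 were Phka1, Scml2, Zfp280c, Map7d2, Zc4h2, 1700013H16Rik, Mtcp1, Gm364, Tex13 and Nap1l3. At day 3, 7 of them were lower and 1 higher than in EpiSC, and at P2 8 were lower and 1 higher, where 83.18% and 79.44% of all retained genes were lower. Of all genes tested, 37.9% were lower and 38.7% higher at day 3, and 33.8% and 42.1% at P2. The share of other genes on chromosome X was not counted. Xist, the RNA that coats the inactive X, was at 679 and 681 CPM in EpiSC, 29.6 and 31.0 in ESC, 34.3 and 41.5 at day 3, 117 and 132 at P2, and 30.2 to 87.9 in rES. The part of X-chromosome state in these values was not tested. The rES groups alone carry the genotype label CD1-deltaTSIX/JF1, so in their Xist and X-linked values genotype cannot be told apart from reversion. Chromosomes 1 and 11 held 12 retained genes each (11.32%), against 4.494% and 13.16% of the not retained genes and 5.569% and 8.383% of all genes at that level. Directly neighbouring retained genes included Scn8a and Fignl2, Vps37d and Mlxipl, and Clgn and Scoc, and reads of overlapping genes cannot be told apart without strand.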

How the data were processed

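The 14 mouse libraries form 7 groups of 2, read from the sample titles. The authors deposited raw read counts for 24015 gene symbols, and per the submitters' processing notes the tools were DESeq, Subread and TopHat2 on build mm9, without versions or roles. No source used here gives the strand or the treatment of multi-mapping reads. Columns that match no sample label (2) were not used, and 27 gene names had been read as dates. CPM are counts scaled to the total count of a library. Genes kept by filterByExpr (16247) were scaled by TMM factors, and edgeR 4.0.16 in R 4.3.3 tested them (quasi-likelihood F test, robust) over all 14 libraries with 1 mean per group. P-values were two-sided, adjusted within each comparison and called at 0.05, and the test was tried on simulated data. The standard error is the log2 fold change divided by the square root of F. The alternatives, including DESeq2 1.42.0, are in the closing section. Members and lists were chosen with earlier results of these data known, and role groups, the sterol core motif and thinning after values were seen. Named genes are members with the 12 highest EpiSC levels, the 10 highest EpiSC to ESC ratios, the 8 highest and 4 lowest rES without MM401 to EpiSC ratios, up to 6 called rises and falls per comparison at 10 CPM or more, list members and those at the limits. A few genes that this rule names are not reported here. Others, such as those listed by position or near copies, were named after values were seen. Promoters are from RefSeq (GRCm38.p6) by symbol (106 of 107 symbols matched), and each p-value reflects the spread between 2 libraries a group alone.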

Additional observations from a re-analysis of the deposited data

Results flagged for a closer look

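A retained gene was picked out where it was called on opposite sides of EpiSC at MM401 day 3 and MM401 P2 and the difference between P2 and day 3 was itself called by edgeR. That held for 10 genes, all compared through the same 2 EpiSC libraries, which is 9.35% of the 107, where 9.07% of all 16247 genes tested (1473) met the same condition. The log2 fold change of P2 against day 3 was 1.65 for Adamts10, 1.10 for Pdk4, 0.98 for Vamp4 (a vesicle fusion protein), 0.95 for Ankrd44, 0.93 for Sc5d, 0.90 for Rasl11b and 0.63 for Hsd17b7, which were lower than EpiSC at day 3 and higher at P2. It was -0.80 for Gm1564, -0.67 for Gca (a calcium-binding protein) and -0.55 for Dna2, which were higher than EpiSC at day 3 and lower at P2.

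Vamp4 was at 24.7 and 22.5 CPM in EpiSC, 14.2 and 15.1 at day 3, and 29.0 and 29.9 at P2. Rasl11b, a small GTPase, was at 18.3 and 18.6 CPM in EpiSC, 13.0 and 12.7 at day 3, and 24.2 and 24.6 at P2. Ankrd44 was at 13.4 and 12.1 CPM in EpiSC, 9.74 and 9.25 at day 3, and 19.8 and 17.7 at P2. Gca was at 53.026 and 53.6 CPM in EpiSC, 64.0 and 67.1 at day 3, and 44.2 and 39.9 at P2.

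Some calls against EpiSC rested on single libraries. The day 3 call of Ankrd44 was lost without EpiSC replicate 1, without MM401 day 3 replicate 2 and with DESeq2. The day 3 call of Gm1564 was lost without EpiSC replicate 1 and with total counts, and its P2 call without EpiSC replicate 2 and without MM401 P2 replicate 2. The P2 call of Gca was lost without MM401 P2 replicate 2. The P2 call of Hsd17b7 (edgeR adjusted p = 0.0465) was lost in 8 other settings. Its P2 libraries (57.3 and 48.6 CPM) overlapped those of EpiSC (52.7 and 49.5 CPM). For Dna2 the log2 fold change at day 3 against EpiSC was 0.14, its day 3 libraries (85.7 and 82.0 CPM) overlapped those of EpiSC (85.3 and 86.1 CPM), and the call was lost without MM401 day 3 replicate 1 (edgeR adjusted p = 0.0748). Scaled to total counts the same value was -0.03 (edgeR adjusted p = 0.531), so its place on opposite sides of EpiSC depends on the scaling. All 20 fibroblast markers were higher at P2 than at day 3, with a median log2 fold change of 1.498, and their part in these differences was not tested.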

How the results depend on the processing

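The number of retained genes followed the limits of the rule. It was 581 at 2 times the ESC mean and 32 at 4 times, 174 at 0.4 of EpiSC and 30 at 0.75, 164 at 2 CPM, and 69 when every library had to meet the rule, and it ran from 100 to 118 with 1 library left out. With TMM library sizes 86 genes met the rule, of which 67 were among the 107. At a threshold of 2-fold, 2 retained genes were higher and 37 lower at day 3, 2 higher and 33 lower at P2, and 5 higher and 3 lower between P2 and day 3. With 1 library left out, a group of 1 library being assumed to vary like the others, 7 to 10 retained genes were higher and 83 to 89 lower at day 3. The same counts were 11 to 13 and 80 to 83 at P2, and 38 to 41 and 27 to 31 between P2 and day 3. Falls of at least 2-fold numbered 35 to 39 at day 3 and 31 to 33 at P2 with 1 library left out, and 48 and 37 with total counts. Replicate differences were hardly correlated between groups (from -0.0306 to 0.0402). Such values over all genes cannot exclude a shared origin that touches few genes. With a replicate block 9 retained genes were higher and 88 lower at day 3, 13 and 84 at P2, and 43 and 30 between P2 and day 3. Among the genes named, 1 direction reversed in the settings run, that of Dna2 at day 3 (-0.032 with total counts). Of 157 called results of named genes, 18 lost a call in some setting other than the 2-fold threshold, and their cause was not tested. Genes of a few CPM have standard errors above 0.1 on the log2 scale, so small changes in them were not detectable at this depth.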
